A study of Arabidopsis thaliana with 6 samples.

Results

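Nitrate taken up by an Arabidopsis thaliana seedling is reduced to nitrite by nitrate reductase and to ammonium by nitrite reductase, and the ammonium is built into amino acids. Nitrate is also a signal: the dual-affinity transporter NRT1.1 acts as a sensor, NLP7 carries the signal into the nucleus as a transcription factor, and genes such as those for the reductases, the high-affinity transporter NRT2.1, the BTB/TAZ proteins BT1 and BT2 and the HRS1-related HHO repressors respond to it. Lysine 4 methylation of histone H3 (H3K4) is a mark of active genes, and WDR5A belongs, as a WD40-repeat protein, to the complexes that write it.

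The 10 genes described here were NIA2 (AT1G37130) and NIA1 (AT1G77760) for nitrate reductase, NIR1 (AT2G15620) for nitrite reductase, BT2 (AT3G48360) and BT1 (AT5G63160), the transporter genes NRT1.1 (AT1G12110) and NRT2.1 (AT1G08090), NLP7 (AT4G24020), and HHO2 (AT1G68670) and HHO3 (AT1G25550). They were taken from 27432 protein-coding genes and were chosen by their function and with the summits at some of them, NIA2 and BT2 among them, already known. Their summits are therefore given as a description, with no test.

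Binding was measured by chromatin immunoprecipitation and sequencing (ChIP-seq) with an anti-HA antibody in whole 9-day-old seedlings under continuous white light. The descriptions and the genotype label of all 6 libraries give WDR5A-HA_pkl, that is, HA-tagged WDR5A in a background named for the CHD3-type remodeller gene PKL; the sources used here give neither the promoter of the tagged gene nor the pkl allele or ecotype. The titles name the same libraries PKL_WT (the 3 IP libraries) and PKL_jaw-5D (the 3 inputs), and they disagree with the descriptions, from which bait and genotype were taken here. Summit lists of the 3 IP replicates were analysed; inputs had no list among them and only this genotype was analysed, so no value shows what the pkl background does to any gene. Chromatin of all seedling cells was pooled, so a site held in few cells and a weaker site in many cannot be told apart.

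The lists held 10864, 10408 and 10826 summits in replicates 1, 2 and 3, with median strengths of 7.08, 6.48 and 6.64. Strength is the deposited −log10 q of a peak, where 1.301 corresponds to a q of 0.05. It grows with sequencing depth, which is unknown here, so each value is best read by its place within its own list. Each summit within 250 bp of the next along the chromosome, of whichever list, was linked to it. A chain of linked summits can therefore span more than 250 bp. A linked group with a summit in each of the 3 lists is called a shared site, placed at its median summit. There were 6684 shared sites. A gene's window was the gene plus 500 bp to either side. Strand was not used, so gene ends are called the lower-coordinate and the higher-coordinate end and not start and end.

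Of the 10 genes, 8 held a shared site in their window and together they held 12. Among all protein-coding genes 22.9% held at least 1. Since the genes were chosen with these lists known, nothing is read from that difference. NIA2, NIA1, NIR1, BT2, BT1 and NLP7 had 1 shared site each, NRT1.1 had 2 and HHO2 had 4. HHO3 had a site in 2 lists and NRT2.1 had no summit in its window in any list, as did 56.4% of all protein-coding genes. Besides these, 4 summits in the windows were called in a single list.

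**Figure D1:**
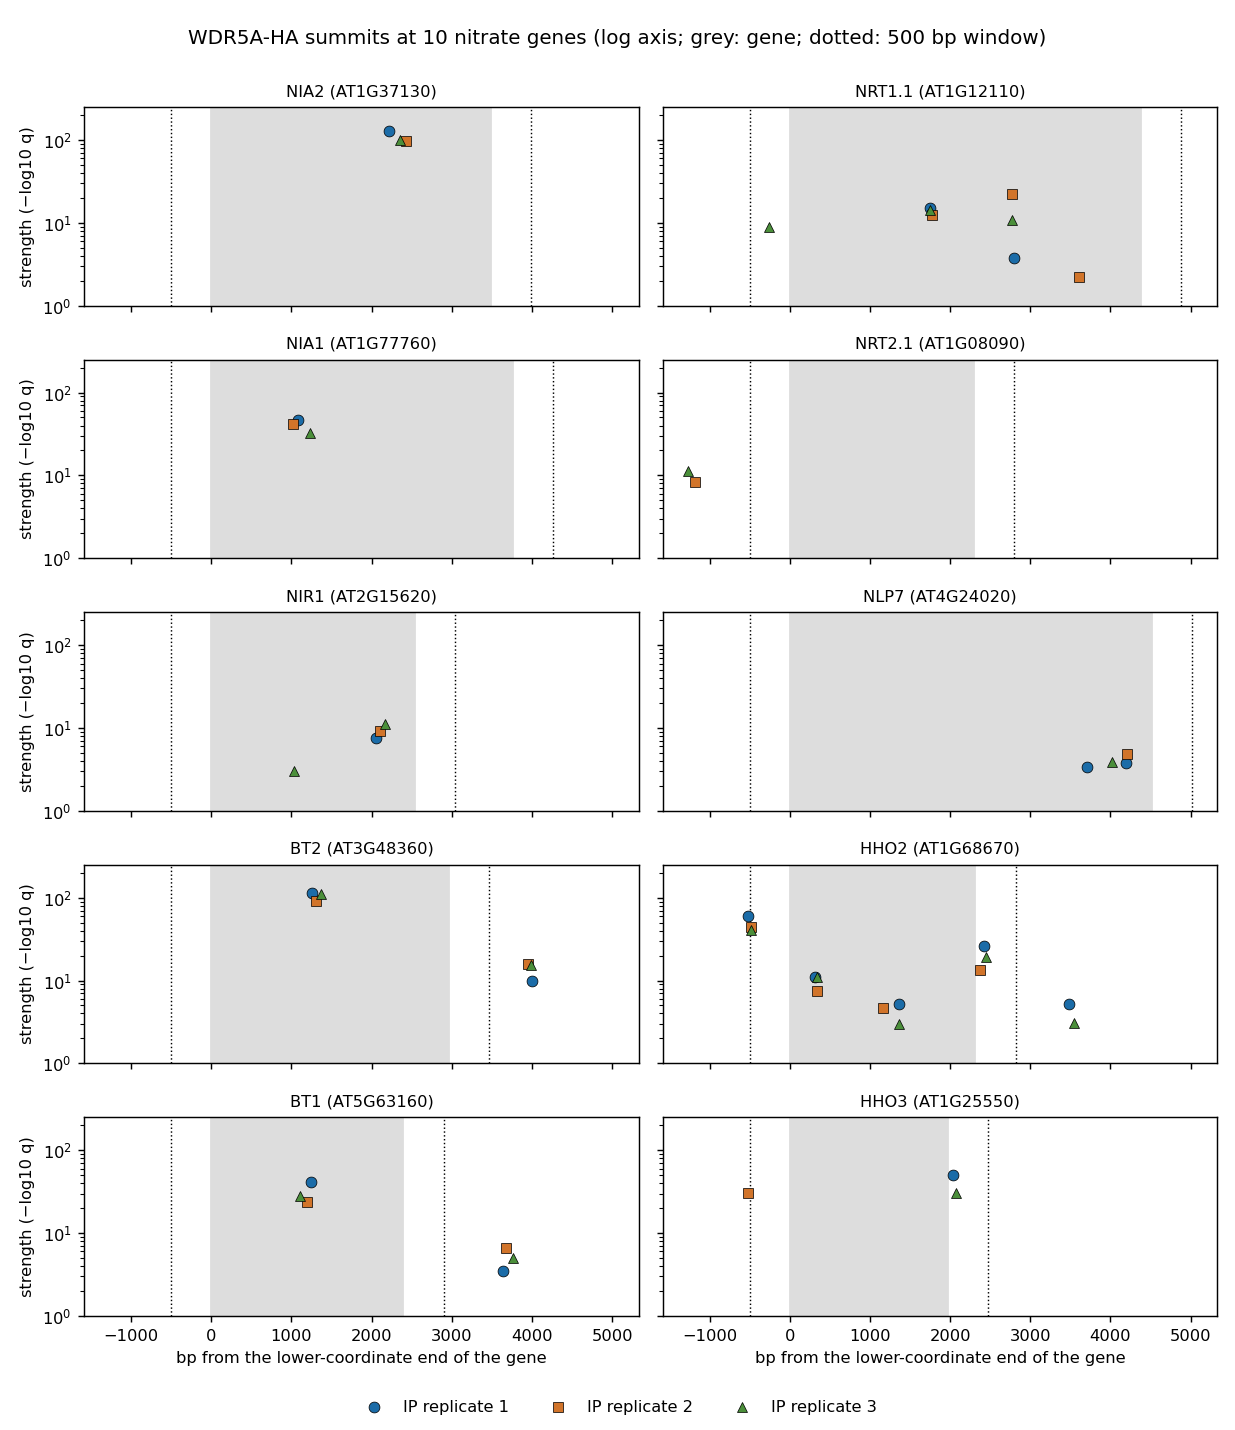
Summits of the 3 IP lists at the 10 genes, by distance in bp from the lower-coordinate end of the gene (x axis) and strength as −log10 q (y axis, log scale). Grey marks the gene and dotted lines the window of 500 bp to either side. NIA2, NIA1, BT2 and BT1 each show 1 cluster of 3 points well inside the gene, while HHO2 shows 4 clusters across its window and HHO3 has points beyond opposite ends of the gene.

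The nitrate reductase genes each carried a single strong site deep inside the gene. At NIA2, which encodes the isoform responsible for most nitrate reductase activity in seedlings, the strengths in replicates 1, 2 and 3 were 129.8, 97.6 and 101.2. These summits ranked 3rd, 1st and 5th in their lists. The site lay at position 14160809 of chromosome 1 (TAIR10), 67.6% of the way along the gene from its lower-coordinate end and 1129 bp from the nearest end. No other summit was called within 1500 bp of NIA2 in any list.

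At NIA1, the other nitrate reductase gene, the strengths were 46.6, 42.3 and 32.2, which placed the summits at ranks 183, 147 and 382. The site was at position 29236809 of chromosome 1, 28.9% of the way along and 1088 bp from the nearest end. NIA2 exceeded NIA1 in each list, and the lowest NIA2 value was above the highest NIA1 value. NIA1 and NIA2 are paralogs, and how reads that match both were treated is not known here.

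NIR1, whose product reduces nitrite to ammonium in plastids, carried a weaker site. Its strengths were 7.65, 9.14 and 11.1, at the 54.0th, 67.6th and 74.0th percentiles of the lists, so all 3 summits were in the upper part of their lists but far from the top. The site was at position 6812495 of chromosome 2, inside the gene and 446 bp from the higher-coordinate end. A further summit of 3.06 was called 1036 bp from the lower-coordinate end in replicate 3 alone. The strengths of NIR1 were below those of NIA1 in every list, with no overlap.

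BT2 encodes a scaffold protein with BTB and TAZ domains that is induced by nitrate and is known to limit NRT2.1 expression at low nitrate. It stood beside NIA2 in strength, with 113.1, 90.2 and 111.7 in replicates 1, 2 and 3, at ranks 4, 5 and 2. NIA2 was the stronger in replicates 1 and 2 and BT2 in replicate 3, so the order of these genes was not the same in every list. The BT2 site lay at position 17909073 of chromosome 3, 1306 bp inside the gene. A shared site outside the window, at position 17911751, fell within the lncRNA gene AT3G07945, whose nearer end is 860 bp from BT2. Its strengths were 9.88, 15.8 and 15.6. On the other side, where the gene CEP3 is 77 bp away, no summit was called within 1500 bp of BT2.

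BT1, the closest relative of BT2 among the members, had a site of the same kind at lower strength. The values were 41.1, 24.1 and 28.4, and the summits stood at the 97.6th, 93.8th and 95.2nd percentiles. The site was at position 25334364 of chromosome 5, 1192 bp inside the gene and close to its middle (49.7% of the length). A weak shared site lay 1284 bp outside the gene, beyond the window, with 3.53, 6.68 and 5.06. Each of BT1 and BT2 thus had a single site in its window, more than 1000 bp from either end, and a weaker one between 1000 and 1500 bp beyond the higher-coordinate end.

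NRT1.1, the transporter and nitrate sensor, had 2 shared sites inside the gene, 1030 bp apart. The first, at position 4106970 of chromosome 1, had strengths of 15.0, 12.4 and 14.1, and its summits lay within 23 bp of each other. The other, at position 4108000, was placed as closely, within 28 bp, but its strengths of 3.76, 22.3 and 10.8 differed widely between lists. That is a ratio of 5.93 between the highest and the lowest list, and 0.554% of all shared sites had a ratio as large, against a median ratio of 1.68. In percentiles of its list the same site stood at 18.9, 92.6 and 72.7. It was the strongest site of NRT1.1 in replicate 2 and the weaker of the pair in replicates 1 and 3.

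Single-list summits were also called at NRT1.1, one of 8.97 located 256 bp outside the lower-coordinate end in replicate 3 and one of 2.23 inside the gene in replicate 2. Of all protein-coding genes 3.28% had 2 or more shared sites in their window. NRT2.1, the main high-affinity nitrate transporter gene, had none in its window. The nearest summits were called in replicates 2 and 3 only, 1187 and 1269 bp outside the lower-coordinate end, with strengths of 8.37 and 11.2. NRT2.2, a close paralog 848 bp from the opposite end, had no summit either.

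By mean strength over the lists, NLP7 carried the weakest of the 12 shared sites, at 4.17 against 4.27 for the third site of HHO2 described below. That HHO2 site was the weaker of the pair in replicates 2 and 3. The strengths at NLP7 were 3.75, 4.89 and 3.87, at the 18.8th, 34.1st and 22.3rd percentiles. The site was at position 12483726 of chromosome 4, 323 bp inside the higher-coordinate end, and its summits spread over 187 bp. In replicate 1 a second summit of 3.37 lay deeper in the gene. With linking within 100 bp instead of 250 bp, NLP7 had no shared site.

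HHO2 and HHO3 are MYB-type (GARP) transcription repressor genes related to HRS1, induced by nitrate and known to repress NRT2 genes. HHO2 had the most sites of the 10 genes. The strongest lay outside the gene, 489 bp from the lower-coordinate end at position 25781312 of chromosome 1, with 60.9, 43.9 and 41.3 in replicates 1, 2 and 3. Its summit was 517, 486 and 489 bp from the gene, so that of replicate 1 fell just beyond the window and those of replicates 2 and 3 just within it. Counted only where every summit is inside the window, HHO2 had 3 sites.

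The next site of HHO2 lay 338 bp inside the gene, at position 25782139, with 11.1, 7.55 and 10.9. The third, at position 25783161 and 957 bp from the nearest end, was weak, with 5.22, 4.63 and 2.96. The fourth lay 110 bp beyond the higher-coordinate end at position 25784228, with 26.4, 13.5 and 19.3. Neighbouring sites were 827, 1022 and 1067 bp apart. The sites outside the gene were stronger than those inside it in every list. A further site, in replicates 1 and 3 only, lay 1197 bp beyond the higher-coordinate end with strengths of 5.26 and 3.07. The next gene on that side, AT1G68680, begins 1388 bp from HHO2 and held none of these summits.

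Only 3 protein-coding genes, or 0.0109%, had 4 or more shared sites in their window under these settings. The others were AT1G58602, a gene of 19695 bp with 6 sites and a mean strongest summit of 45.0 ± 5.58 (SD, n = 3), and PPC2 (AT2G42600), a phosphoenolpyruvate carboxylase gene of 4866 bp with 4 sites and 15.1 ± 1.97 (SD, n = 3). HHO2, with 2318 bp, was the shortest of the 3. This standing depends on the settings. The number of genes with at least 4 sites was 9, 8 and 6 without replicates 1, 2 and 3, where 2 lists had to share a site, 6 with linking within 500 bp, 14 with 1000 bp to either side and 32 with sites in at least 2 lists. HHO2 had 2 sites in the gene body alone, as did NRT1.1, and 3 with linking within 100 bp, without replicate 2, without replicate 3 or with the summits below the median strength left out.

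HHO3 had strong summits in all lists, but not in the same place. In replicates 1 and 3 they lay 58 and 94 bp beyond the higher-coordinate end, around position 8978381 of chromosome 1, with strengths of 51.1 and 30.4. In replicate 2 the summit was at position 8975802, 524 bp outside the opposite end and so just beyond the window, with 30.3. These places are 2579 bp apart. All 3 summits were in the top 5% of their lists by strength, at the 98.7th, 96.6th and 95.8th percentiles in replicates 1, 2 and 3. In that top class of replicate 2, 40 of 522 summits were not part of a shared site, and 36 of 544 and 29 of 542 were not in replicates 1 and 3. No summit was called inside HHO3.

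By the strongest summit in the window, averaged over the lists, NIA2 (109.6 ± 17.6, SD, n = 3) ranked 3rd and BT2 (105.0 ± 12.8) 4th among protein-coding genes. NIA1 (40.3 ± 7.40) ranked 170th, HHO2 (37.2 ± 9.43) 221st, BT1 (31.2 ± 8.86) 337th and NRT1.1 (17.1 ± 4.48) 1197th. NIR1 (9.31 ± 1.75) came 3202nd and NLP7 (4.17 ± 0.627) 6270th of 6795 genes with a summit in every list. For HHO2 the strongest summit inside the window was a different site in replicate 1 than in the others; its strongest shared site averaged 48.7 ± 10.7 (SD, n = 3), and its gene body alone gave 9.85. For NRT1.1 the value likewise mixes its sites.

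Among the 8 genes with a summit in every list, NIA2 and BT2 held the first places in each list. NIA1, HHO2 and BT1 came next in each list. Ranges over the 3 lists also hold differences between lists, whose depth is unknown. By range, NIA2 and BT2 overlapped and so did NIA1, HHO2 and BT1. The ranges of the first pair and of those 3 genes did not overlap. NRT1.1, NIR1 and NLP7 each lay below the range of the gene before. NIA1 was above BT1 in every list, and only the place of HHO2 beside them changed. In replicate 1 the window value of HHO2 came from a different site than in the others. At its strongest shared site, with 60.9, 43.9 and 41.3 in replicates 1, 2 and 3, HHO2 was above NIA1 and BT1 in every list. The gap between BT1 and NRT1.1 was small, 24.1 against 22.3 in replicate 2. Within each list the last places were held by NRT1.1, NIR1 and NLP7 in that order.

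**Figure D2:**
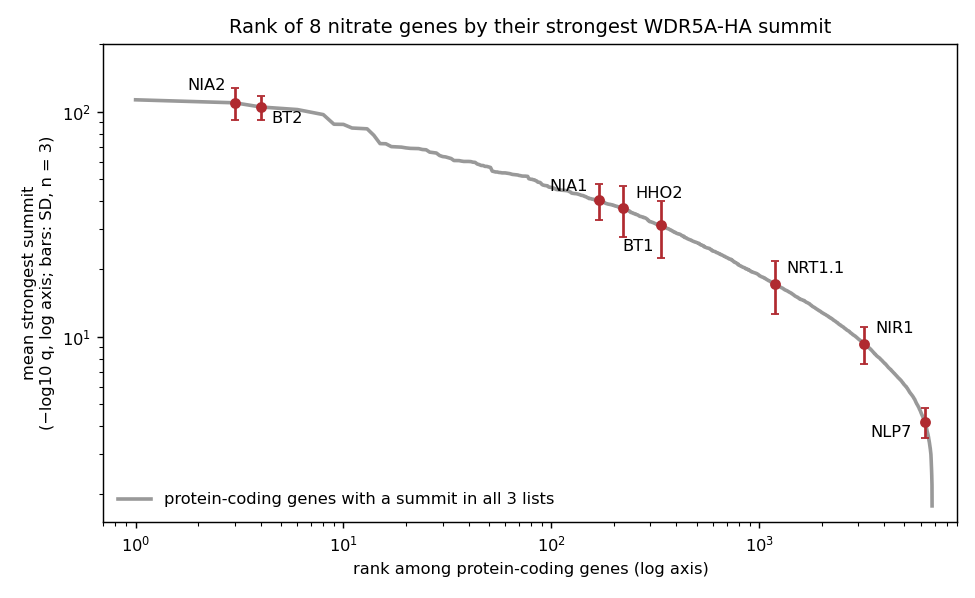
Mean strength of the strongest summit in the gene window (y axis, −log10 q, log scale) against rank among protein-coding genes (x axis, log scale). The grey line is all 6795 genes with a summit in all 3 lists; red points are the 8 nitrate genes among them with SD over 3 lists. NIA2 and BT2 sit at ranks 3 and 4, NIA1, HHO2 and BT1 between 170 and 337, and NLP7 near the low end at 6270.

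Most of these sites lay deep inside the genes. Of the 12 shared sites, 10 lay inside the gene and 7, at 6 genes, lay more than 500 bp from both ends: those of NIA2, NIA1, BT2 and BT1, both of NRT1.1 and the weak central site of HHO2. Among all 6684 shared sites 802 (12.0%) lay that deep inside a protein-coding gene, and among the strongest 5% of shared sites 16.1% did. These shares have a different base, since the member sites were taken only from gene windows. Of the 6684 sites, 3182 (47.6%) lay inside a protein-coding gene at all, and of the strongest 5%, 44.8%. Counted only among sites inside a gene, 802 of 3182 lay that deep, and 7 of 10 at the members. The median distance to the nearest gene end was 1109 bp for the 10 member sites inside genes and 227 bp for all 3182 shared sites inside protein-coding genes. Long genes leave more room for deep sites, and the windows of the 10 genes were not matched for length here. The genes were also chosen with these lists known, so nothing is read from these differences. The 2 member sites outside genes both belonged to HHO2.

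The lists also differed in how closely they placed these sites. At NIA2 the summits of replicates 1, 2 and 3 lay at positions 14160673, 14160884 and 14160809, a spread of 211 bp, and at NIA1 the spread was 207 bp. Over all shared sites the median spread was 57 bp, and over the strongest 5%, 35 bp. A spread of 207 bp or more was found at 5.75% of all shared sites and at 10 of the 335 strongest (2.99%). BT1 and BT2 spread over 136 and 116 bp. The strongest site of HHO2 spread over 31 bp and the sites of NRT1.1 over 23 and 28 bp. With linking within 100 bp the summits of NIA2, NIA1 and NLP7 no longer formed a shared site, and 5 of the 10 genes held one.

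**Figure D3:**
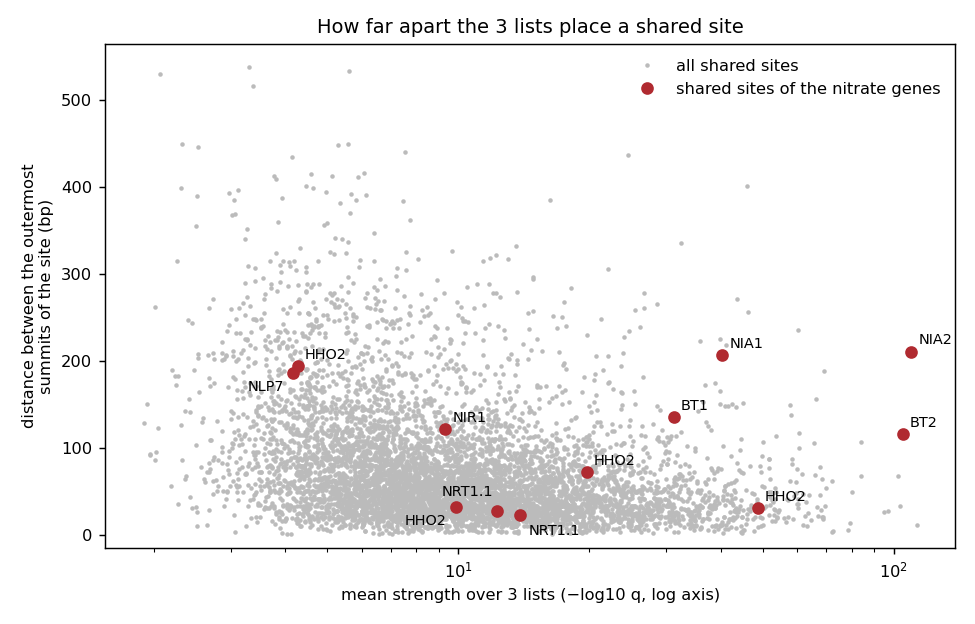
Distance in bp between the outermost summits of a shared site (y axis) against its mean strength over 3 lists (x axis, −log10 q, log scale). Grey points are all 6684 shared sites and red points the 12 of the nitrate genes. NIA2 (211 bp) and NIA1 (207 bp) lie above most sites of their strength, where the strongest 5% have a median of 35 bp.

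Other genes of nitrogen uptake, assimilation and nitrate signalling were taken from lists by function, 90 genes of which 89 were matched in the gene table, the 10 genes above included. Of the 79 others, 35 (44.3%) held a shared site, 3 had summits in 2 lists, 12 in 1 list and 25 in none. The remaining 4 had summits in all lists without a shared site. Among all protein-coding genes 22.9% held a shared site and 56.4% had no summit in any list. The function lists were chosen with earlier results of these data known. Nothing is therefore read from these differences, here or for the single function lists below. Median strength was 11.3 over the 39 of them with a summit in every list and 8.90 over the 6795 protein-coding genes.

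Among the other genes of nitrate reduction and its cofactors, 4 of 12 held a shared site. The strongest were RFNR2, a root ferredoxin-NADP reductase gene, with 10.3, 9.48 and 15.7 in replicates 1, 2 and 3, the molybdenum cofactor gene CNX3 with 11.8, 11.6 and 10.6, and UPM1, which acts in the synthesis of the siroheme that nitrite reductase needs, with 6.50, 8.84 and 13.8. All were of the order of NIR1 and far below the nitrate reductase genes. G6PD3, FD3 and CNX2 had no summit in any list.

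Of the other 15 nitrate transport genes, 7 held a shared site. NRT2.7, which loads nitrate into seed vacuoles, reached 24.4, 9.62 and 15.5, NRT1.2 17.5, 16.3 and 11.6, and NRT2.3 12.7, 9.43 and 13.9. The NRT1.2 site lay 1485 bp inside the gene, against 1747 and 1601 bp from the nearest end for those of NRT1.1. NRT2.2 and the xylem transporter genes NRT1.5 and NRT1.8 had no summit.

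Of the 16 ammonium transport and assimilation genes, 10 held a shared site. ASN2, an asparagine synthetase gene, had a site 52 bp outside the gene with 29.7, 21.0 and 35.6. GS2, the plastid glutamine synthetase gene, had one 121 bp outside with 23.2, 26.9 and 23.1, and GLT1, for NADH-dependent glutamate synthase, one 71 bp inside with 15.0, 17.9 and 20.9. These 3 sites lay near a gene end, unlike those of the nitrate reductase genes. AMT1;3 and GLN1;4 had no summit.

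Among regulators, NLP7 was the only one of the 9 NIN-like protein genes with a shared site, and NLP1, NLP6 and NLP8 were among the 5 with no summit at all. Of the 7 genes listed with HRS1, HHO2 and AT4G37180 held shared sites. AT4G37180 had one 73 bp inside one end, with 15.6, 9.43 and 6.95, and one 103 bp outside the other end, with 9.78, 8.64 and 11.1. HRS1 had a summit of 2.98 in replicate 1 alone, and AT1G49560, AT2G03500 and AT3G25790 had none.

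Shared sites were called at 4 of the 5 BT genes, but BT1 and BT2 were chosen with the summit lists known. Without BT1 and BT2, 2 of 3 BT genes held one, and nothing is read from these counts. BT5 had 20.0, 37.6 and 21.1 at a site 391 bp inside the gene, and BT4 25.6, 24.0 and 23.1 at a site 209 bp inside, with another 85 bp inside one end. BT3 had no summit. The BT4 and BT5 sites were thus closer to a gene end than those of BT1 and BT2.

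Of 20 other nitrate signalling genes, 11 held a shared site. The LOB-domain gene LBD37, a nitrate-induced repressor of nitrate genes, was the strongest at 66.4, 42.8 and 38.9, with its site 842 bp inside the gene. ANR1, a MADS-box gene of the lateral root response to nitrate, reached 62.4, 35.8 and 42.2 at 184 bp outside the gene. AT3G60320 had 51.9, 28.9 and 26.3 at 291 bp outside and 2 weaker sites inside. TCP20, CIPK8 and NAC4 had no summit. LBD37 and ANR1 overlapped in range with NIA1 and HHO2, and no listed gene outside the 10 reached the lowest value of NIA2 or BT2 in any list.

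**Figure D4:**
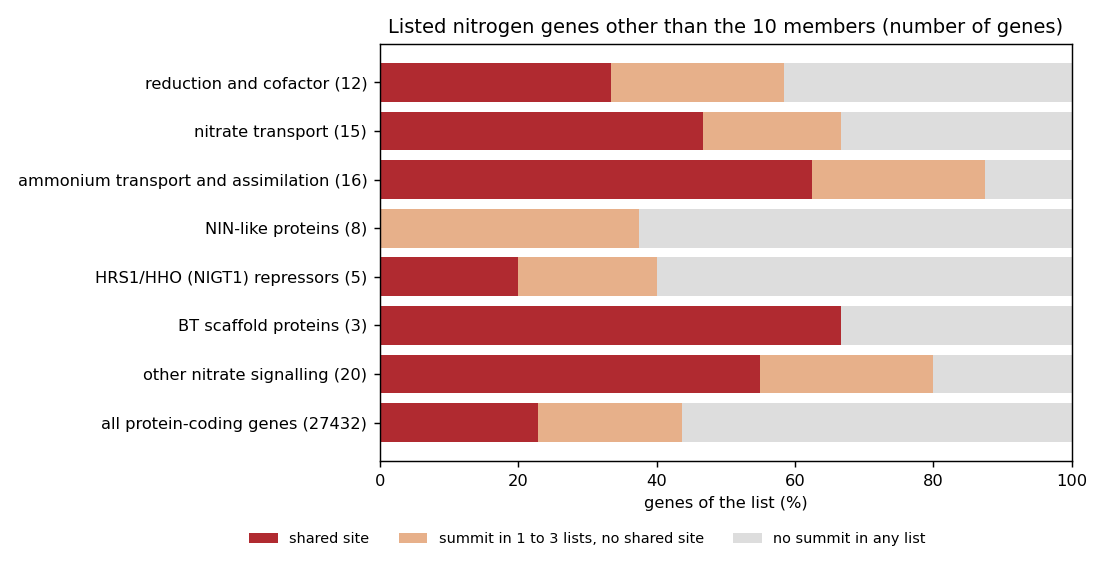
Share of genes (x axis, %) in each function list, the 10 genes left out, with a shared site (red), with summits in 1 to 3 lists but no shared site (orange) and with no summit (grey); the number of genes is in brackets. Against 22.9% of all protein-coding genes, the share was 66.7% for BT genes (2 of 3), 62.5% for ammonium transport and assimilation, 55.0% for other nitrate signalling, 46.7% for nitrate transport, 33.3% for reduction and cofactors, 20.0% for the HRS1-related genes (1 of 5) and 0 of 8 for NIN-like protein genes. The function lists were chosen with earlier results of these data known, so nothing is read from these differences.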

How the data were processed

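The deposited files are 3 lists of 1 bp summits, one for each IP replicate, with no header. Per the submitters' processing notes, the tools were MACS2 2.2.5, Bowtie2 2.3.3, deepTools and fastp, and the build TAIR10; thresholds, controls and read filters: not given in the sources used here. The deposited strength was read as −log10 of the q-value from its minimum of 1.301, and peak names carry the replicate number, so peaks were taken as called per sample. Depth is unknown, so no counting interval is given. Positions are counted from 1. Gene positions came from an NCBI RefSeq table of assembly TAIR10.1, of which no coordinate is printed. With no shift, 26.3% of shared sites were 100 bp or less from an end of a protein-coding gene, against 8.12% or less after shifts of 500 or 1000 bp either way. The share was 25.7% and 25.6% after shifts of -100 and 100 bp. After shifts of -250 and 250 bp it was 16.5% and 17.0%. An offset of about 100 bp would therefore not be seen by this check. Between 59 and 73 summit positions were identical in pairs of lists, so none is a copy of another.

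Linking, windows and ranks were computed in Python 3.11.15 with pandas 2.3.3 and tested on simulated summits. No statistical test was made. The members and function lists were chosen with earlier results of these data known. From each list the text names the 3 genes with the highest mean strength among those with a shared site and up to 3 with no summit in locus order, besides the members; HRS1 and genes beyond this rule were added after their values were seen. For genes most like HHO2, those with at least as many shared sites were named. The promoter motif search planned for these genes was not run, since no sequence was used here. Alternatives varied the linking distance, window, strength, number of lists and assignment to 1 gene, and left out each replicate.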

Additional observations from a re-analysis of the deposited data

How the results depend on the processing

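The 4 counts (members with a shared site, their sites, listed nitrogen genes and all protein-coding genes with one) were recomputed under 11 alternatives, and 41 of the 44 values stayed within 1.5 times the first. The exceptions were 5 members in place of 8 with linking within 100 bp, since the summits of NIA2, NIA1 and NLP7 are farther apart, and, over all protein-coding genes, 3029 with gene bodies alone and 2994 with summits below the median strength left out, in place of 6275. Members with a shared site otherwise numbered 7 to 9 and their sites 8 to 13. Leaving out a replicate gave 8 to 9 members, 11 to 12 sites, 45 to 47 listed genes and 7088 to 7223 protein-coding genes, where 2 lists had to share a site. HHO3 gained a site without replicate 2 and where 2 lists were enough. Mean strength could change with the choice of site or window only at HHO2, with 48.7 for its strongest shared site and 9.85 inside the gene in place of 37.2, and at NRT1.1, with 13.8 for its strongest shared site in place of 17.1; the other 6 genes have 1 shared site, inside the gene, so the value is the same by construction. The alternative that asks for every summit inside the window was chosen after seeing the data. No paired analysis was possible because only the IP libraries have lists here. Depth is unknown, so a gene without a summit is one where none was called, not one without WDR5A.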

Other observations

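The LBD repressor family and the GS/GOGAT genes gave further values. LBD38 and LBD39, relatives of LBD37 that also repress nitrate genes, each held a shared site, as did 22.9% of all protein-coding genes. The mean strongest summits of LBD38 and LBD39 were 18.2 ± 6.54 and 22.7 ± 8.56 (SD, n = 3). The ferredoxin-dependent glutamate synthase genes GLU1 and GLU2 stood close together, at 15.0 ± 1.38 and 14.7 ± 3.07 (SD, n = 3), with 2 shared sites each. The glutamate dehydrogenase gene GDH2 had 3 shared sites and 10.1 ± 2.63 (SD, n = 3), while GDH1 had summits of 3.33, 6.34 and 3.45 in the 3 lists and no shared site. ASN1, the dark-induced asparagine synthetase gene, had a single summit of 3.02 in replicate 1, against 28.8 ± 7.34 (SD, n = 3) for ASN2. These genes were picked after their values were seen, so nothing is read from how many of them held a shared site.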
